A study of Mus musculus with 18 samples.

Results

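The BTG, GADD45 and PLK antiproliferative genes were read as a group of 9 genes, Btg1, Btg2, Btg3, Gadd45a, Gadd45b, Gadd45g, Plk2, Plk3 and Zmat3. They were chosen by symbol among the 25239 genes of the deposited expression table, with earlier results of these data known, and all 9 were found. Each of them also passed the filter on low values, which left 12828 genes for testing. RNA had been sequenced from 18 samples of 3 mouse small cell lung cancer (SCLC) lines of Type D, 4711-1, 4711-18 and 4716-11, which were derived from separate tumors. The tumors arose in mice with floxed Rb1 and Rbl2, a Trp53 XTR/XTR allele, whose gene trap is inverted by Cre to silence p53 and excised by Flp recombinase to restore it, and Rosa26 FlpO-ER, after infection of the lung with an adenovirus carrying Cre under a CMV promoter. Each line carried a control guide against β-Gal (sgBgal) or 1 of 2 guides against Ppia, the gene of cyclophilin A, which are sgPpia#3.2 and sgPpia#4.1. Each culture was treated for 72 h with vehicle (Control) or with 4-hydroxytamoxifen, which turns p53 back on in these cells (Restored). Every one of the 6 conditions therefore held 3 samples, 1 from each line, and a line is its own replicate across conditions. Control and Restored cells alike lack Rb1 and Rbl2 function by design, and the guide-selected cultures are pools in which cyclophilin A was reduced and not absent.

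BTG proteins are small adaptors that bring the CCR4-NOT deadenylase to messenger RNAs and slow cell division. GADD45 proteins are small stress-inducible proteins that bind the cyclin B kinase Cdk1, PCNA and the kinase Map3k4. Plk2 and Plk3 are stress-responsive relatives of the mitotic kinase Plk1, and Zmat3 is a zinc finger protein that binds RNA and regulates splicing. Btg2, Gadd45a, Plk2, Plk3 and Zmat3 are textbook targets of p53. Several of the same genes, Btg2 and Plk2 among them, are also induced within minutes by growth factors and stress.

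In GRCm38.p6 the 9 genes lie on 7 chromosomes. Gadd45g and Plk2 are both on chromosome 13, far apart, and Btg1 and Gadd45b are both on chromosome 10. RefSeq promoter windows of the same build, 250 bases before to 50 bases after the start of transcription, were at hand for 8 of the 9 genes, all but Zmat3. Windows of Btg2, Plk2 and Gadd45a are printed because the first pair share a motif and vary together in the samples, and because the third holds the only p53 half-site found. The capitals mark TGACGTCA, the palindromic cyclic AMP response element, in Btg2 (chr1:134079106-134079405, minus strand) and Plk2 (chr13:110394794-110395093, plus strand), and the p53 half-site in Gadd45a (chr6:67037358-67037657, minus strand).
Btg2: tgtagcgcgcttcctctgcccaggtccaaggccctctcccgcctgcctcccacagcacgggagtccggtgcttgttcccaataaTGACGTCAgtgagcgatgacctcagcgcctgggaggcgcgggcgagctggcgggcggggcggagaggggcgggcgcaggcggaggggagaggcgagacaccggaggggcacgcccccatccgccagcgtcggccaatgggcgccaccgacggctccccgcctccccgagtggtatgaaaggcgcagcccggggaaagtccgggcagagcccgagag
Plk2: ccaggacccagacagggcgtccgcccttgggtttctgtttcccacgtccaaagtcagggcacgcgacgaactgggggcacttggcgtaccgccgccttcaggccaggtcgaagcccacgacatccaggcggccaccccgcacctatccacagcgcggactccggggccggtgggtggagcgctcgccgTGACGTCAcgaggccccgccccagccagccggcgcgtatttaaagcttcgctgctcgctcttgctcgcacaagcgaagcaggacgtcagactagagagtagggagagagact
Gadd45a: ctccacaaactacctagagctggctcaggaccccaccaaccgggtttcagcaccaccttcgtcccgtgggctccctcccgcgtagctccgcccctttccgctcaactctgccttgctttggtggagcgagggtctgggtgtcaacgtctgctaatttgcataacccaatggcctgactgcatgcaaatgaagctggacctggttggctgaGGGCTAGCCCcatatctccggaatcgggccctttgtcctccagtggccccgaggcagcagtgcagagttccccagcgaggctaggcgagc
Both strands were searched. TGACGTCA began 166 bases before the start in Btg2 and 62 bases before it in Plk2, and it was found in 1.88% of the 27025 genes with a promoter window. The end of the Btg2 window matched no GENCODE transcript of that gene, whereas those of Plk2 and Gadd45a did. The Btg2 distance is therefore less certain. The p53 half-site began 40 bases before the start in Gadd45a and was found in 8.37% of genes. TATAAA was found in Btg1, Gadd45b and Gadd45g, against 14.2% of all genes, and a CArG box in none of the 8, against 1.57%. These matches describe letters in a window, and binding was not measured in these data.

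Trp53 ranged from 5.45 to 8.41 TPM, an abundance scaled for transcript length and library total, in the 9 Control samples and from 181 to 236 TPM in the 9 Restored samples, so every sample stood on the side of its label. Ppia ranged from 2575 to 2849 TPM in Control cells with sgBgal, from 658 to 1207 TPM with sgPpia#3.2 and from 1684 to 1952 TPM with sgPpia#4.1. In Restored cells it ranged from 1551 to 2730 TPM with sgBgal, from 769 to 1233 TPM with sgPpia#3.2 and from 1191 to 1765 TPM with sgPpia#4.1, the last overlapping sgBgal. The log2 difference from sgBgal was -1.51 and -1.13 with sgPpia#3.2 in Control and Restored cells and -0.61 and -0.44 with sgPpia#4.1, and none of these 4 was called in limma (adjusted p = 0.472 for the first and 1 for the others). With lines entered as blocks Ppia was called with sgPpia#3.2 in both states (adjusted p = 0.00153 and 0.0431) and not with sgPpia#4.1. Of 10 lung neuroendocrine markers 4 reached 1 TPM in some sample. These were Ncam1 at 6.90 to 29.7 TPM, Syp at 3.03 to 7.12 TPM and Uchl1 at 1.21 to 2.81 TPM, above 1 TPM in every sample, and Insm1 at up to 3.37 TPM. Chga and Calca did not exceed 0.156 and 0.0181 TPM. Rb1 and Rbl2 were still read at 3.36 to 30.8 and 1.98 to 6.66 TPM, and values per gene do not show which exons those reads came from. The sum of the pair was 5.34 to 13.4 TPM in Control and 18.6 to 37.4 TPM in Restored samples, with no overlap. Of 5 epithelial markers, Krt8, Krt18, Krt19 and Cdh1 were at no less than 264 TPM in any sample, whereas Epcam ranged from 0 to 6.25 TPM with a median of 0.563 TPM. The summed level of 5 immune markers was 2.999 to 7.38 TPM in Control and 22.6 to 42.6 TPM in Restored samples, most of it Cd68, while Ptprc did not exceed 0.0814 TPM. Relative depth, read from the steps between low values, ranged from 1 to 1.78 times the shallowest sample. A pair of cultures stood apart from the other guides of their line over all genes. The root mean square log2 difference of 4711-18 with sgPpia#3.2 from the other cultures of that line was 0.55 to 0.56 in Control and 0.39 to 0.48 in Restored cells, against 0.31 and 0.28 between the other guides. That of 4711-1 with sgPpia#4.1 was 0.39 to 0.41 in Control and 0.42 to 0.46 in Restored cells, against 0.35 and 0.30. Results are therefore given with and without these 4 samples where they matter.

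TPM is scaled for transcript length, so levels can be compared between genes. In Control cells with sgBgal the order ran from Gadd45g at 532 ± 202 TPM (SD, n = 3) through Plk2 at 224 ± 114, Btg2 at 163 ± 108, Btg1 at 122 ± 23.8, Gadd45a at 68.9 ± 6.19, Gadd45b at 64.1 ± 5.07, Plk3 at 25.8 ± 13.5 and Zmat3 at 7.43 ± 3.59 to Btg3 at 3.15 ± 0.321. The ranges of neighbours overlapped from Gadd45g to Btg1 and between Gadd45a and Gadd45b, and did not overlap at the other steps. In Restored cells with sgBgal, Plk2 stood first at 1095 ± 263 TPM, above Gadd45g at 575 ± 201 with no overlap, and Zmat3 at 64.9 ± 24.5 had passed Plk3 at 28.4 ± 11.2. Btg3 was the lowest of the BTG genes in all 18 samples. Gadd45g was the highest of the GADD45 genes in 17 of the 18, the exception being the Control sample of 4711-18 with sgPpia#3.2, where Gadd45a read 206 TPM and Gadd45g 90.4 TPM.

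**Figure D1:**
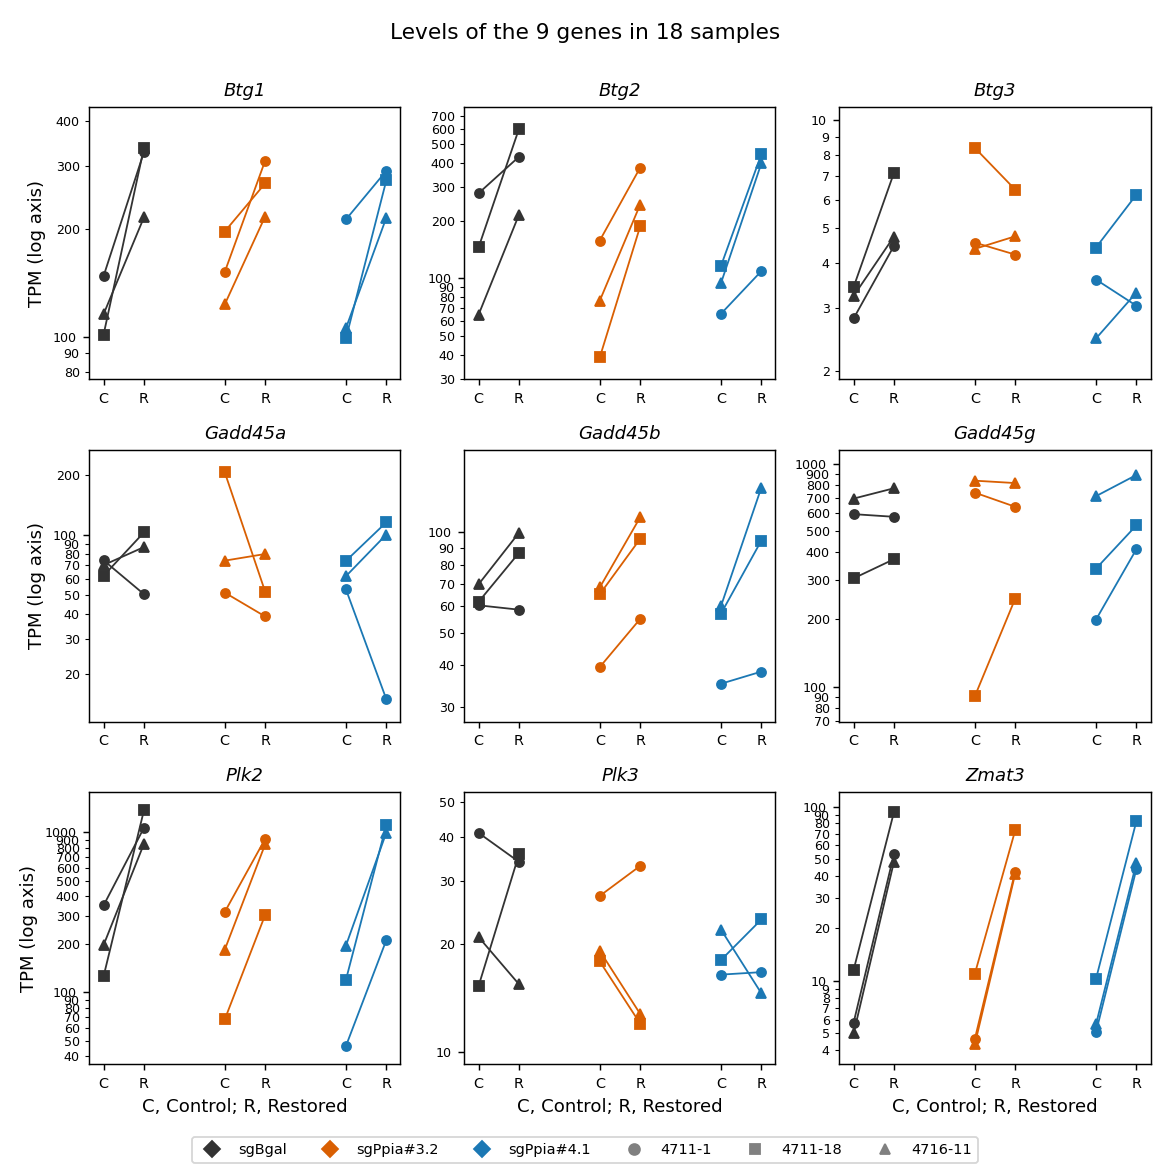
TPM on a log axis for each gene in the 18 samples, with Control (C) and Restored (R) samples of the same line and guide joined by a line. Colors give the guide and symbols the cell line. Btg1, Btg2, Plk2 and Zmat3 rise in all 9 pairs, whereas Gadd45a, Gadd45g, Btg3 and Plk3 move both ways.

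The first question was which of these genes changed when p53 was restored. Zmat3, Plk2 and Btg1 rose with sgBgal, and Btg2 was higher in Restored cells of every line without passing the test. The GADD45 genes, Btg3 and Plk3 did not pass it with any guide. A gene was called at an adjusted p under 0.05 and a log2 fold change of at least 1 in limma, and 3 of the 9 genes were called with sgBgal, 1 with sgPpia#3.2 and 2 with sgPpia#4.1, all higher. Over all 12828 genes tested, 7.64%, 5.75% and 6.09% were called with these guides. When lines were entered as replicate blocks, 3, 2 and 2 of the 9 genes were called, against 11.0%, 8.61% and 9.18% of all genes. Fold changes are on the log2(TPM + 1) scale and their p-values are Benjamini-Hochberg adjusted over all genes tested. With 3 samples against 3, the exact permutation test of a single gene cannot go below p = 0.1.

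Zmat3 read 5.76, 11.5 and 4.99 TPM in Control cells with sgBgal in lines 4711-1, 4711-18 and 4716-11, and 53.4, 93.1 and 48.3 TPM in Restored cells. With sgPpia#3.2 it read 4.63, 11.0 and 4.32 TPM against 42.4, 72.9 and 41.1 TPM, and with sgPpia#4.1 5.07, 10.2 and 5.63 TPM against 43.7, 82.3 and 47.4 TPM. The highest Control sample, at 11.5 TPM, was below the lowest Restored one, at 41.1 TPM, and line 4711-18 was the highest in every condition. Within a guide, 31.3%, 26.5% and 26% of all genes had ranges apart with sgBgal, sgPpia#3.2 and sgPpia#4.1. The share over all guides pooled was not counted. The log2 fold change was 2.99 ± 0.41 (SE, limma adjusted p = 0.000267) with sgBgal. It was 2.85 ± 0.41 for sgPpia#3.2 (adjusted p = 0.000429 in limma) and 2.88 ± 0.41 for sgPpia#4.1 (adjusted p = 0.000402). The 9 ratios of Restored to Control lay between 6.66 and 9.68, against 1.36 to 3.32 for Btg1, 1.55 to 4.82 for Btg2 and 2.86 to 10.9 for Plk2.

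Plk2, a kinase of the centrosome and of the stress response, had the highest mean level of the 9 genes in Restored cells with each guide. In Control cells with sgBgal it read 349, 126 and 197 TPM in the 3 lines, and in Restored cells 1066, 1371 and 847 TPM. In cells with sgPpia#3.2 it read 318, 67.8 and 185 TPM against 908, 304 and 840.0 TPM, and with sgPpia#4.1 46.3, 119.9 and 196 TPM against 212, 1112 and 995 TPM. Restored was above Control in each of the 9 pairs, by 2.86 to 10.9 times, but the ranges overlapped with sgPpia#3.2, where the Restored sample of 4711-18 was below the Control sample of 4711-1. The log2 fold change was 2.38 ± 0.72 (limma adjusted p = 0.0402) with sgBgal and 2.57 ± 0.72 (adjusted p = 0.0346) with sgPpia#4.1. With sgPpia#3.2 it was 1.95 ± 0.72 and did not pass (limma adjusted p = 0.107), whereas blocking on line called it (adjusted p = 0.0498). With the block and median-of-ratios scaling together, Plk2 with sgPpia#3.2 was again not called (1.74, limma adjusted p = 0.0786), while it was called with sgBgal and sgPpia#4.1. Without 4711-18 the sgBgal and sgPpia#4.1 calls of Plk2 were lost at log2 fold changes of 1.85 and 2.26 (limma adjusted p = 0.221 and 0.183), and without 4716-11 they were lost at 2.52 and 2.69 (adjusted p = 0.205 and 0.246), above the values with all lines. Without the 4 samples of the cultures that stood apart, Plk2 was called with all 3 guides, at 1.84 (limma adjusted p = 0.0380) with sgPpia#3.2 and 2.77 (adjusted p = 0.0040) with sgPpia#4.1. That leaves sgPpia#3.2 without 4711-18 and sgPpia#4.1 without 4711-1. Those cultures were chosen after seeing the data and were low for Plk2, so their removal lowers the spread that the test uses. Calls gained this way are no independent evidence.

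Btg1 and Btg2, both inhibitors of proliferation that work through deadenylation, were higher in Restored cells in all 9 pairs, as were 30.8% of all genes tested. Btg1 read 148, 101 and 116 TPM in Control cells with sgBgal and 328, 337 and 216 TPM in Restored cells. With sgPpia#3.2 it read 152, 197 and 123 TPM against 310.2, 268 and 217 TPM, and with sgPpia#4.1 213, 99.1 and 106 TPM against 291, 273 and 215 TPM. Control and Restored ranges of Btg1 did not overlap with any guide, as in 31.3%, 26.5% and 26% of all genes with sgBgal, sgPpia#3.2 and sgPpia#4.1. The log2 fold change of Btg1 was 1.25 ± 0.29 with sgBgal (limma adjusted p = 0.0110). For sgPpia#3.2 it was 0.76 ± 0.29 (adjusted p = 0.120 in limma), and for sgPpia#4.1 0.97 ± 0.29 (adjusted p = 0.0456), short of the required fold. The sgBgal call was lost without line 4711-18 (1.02, limma adjusted p = 0.147) and without line 4716-11 (1.43, adjusted p = 0.0653). Without the cultures that stood apart, the value with sgPpia#4.1 was 1.24 and passed (limma adjusted p = 0.0209). It then lacks 4711-1, and the call was gained by a choice made after seeing the data.

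Btg2 had a wider spread between samples than Btg1. It read 278, 145 and 64.7 TPM in Control cells with sgBgal and 431, 602 and 215 TPM in Restored cells. In cells with sgPpia#3.2 it read 158, 38.7 and 76.5 TPM against 378, 187 and 243 TPM, and with sgPpia#4.1 65.4, 116 and 94.3 TPM against 109, 444 and 398 TPM. The ranges were apart with sgPpia#3.2, as in 26.5% of all genes, and overlapped with the other guides. The log2 fold change of Btg2 was 1.46 ± 0.64 (limma adjusted p = 0.146), 1.72 ± 0.64 (adjusted p = 0.110) and 1.57 ± 0.64 (adjusted p = 0.139) with the 3 guides in the same order, larger than that of Btg1 but with a wider spread. With lines as blocks and without the cultures that stood apart, Btg2 was called with all 3 guides (1.46, 1.46 and 1.995, limma adjusted p = 0.00472, 0.0200 and 0.00375), together with 11.2%, 9.26% and 12.4% of all genes. The sgBgal fold did not move, and its SE was 0.31 against 0.64 with the block and all samples. Those cultures were chosen after seeing the data and were low for Btg2, so these calls are no independent evidence.

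Btg3, the least abundant of the group, read 2.80, 3.42 and 3.23 TPM in Control cells with sgBgal and 4.46, 7.14 and 4.74 TPM in Restored cells, with no overlap, as in 31.3% of all genes with this guide. Its log2 fold change was 0.61 ± 0.27 with sgBgal (limma adjusted p = 0.152), -0.11 ± 0.27 with the first Ppia guide (adjusted p = 0.867) and 0.18 ± 0.27 with the other (adjusted p = 0.758). With the Ppia guides it was higher in Restored cells in 1 and 2 of the 3 lines.

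None of the 3 GADD45 genes passed the test with any guide, and differences between them were not tested. Gadd45a, a p53 target in many cell types, read 74.3, 62.1 and 70.3 TPM in Control cells with sgBgal and 50.2, 103 and 86.6 TPM in Restored cells. With sgPpia#3.2 it read 51.1, 206 and 74.0 TPM against 38.8, 51.7 and 79.9 TPM, and with sgPpia#4.1 53.1, 73.8 and 61.8 TPM against 14.9, 115 and 100.1 TPM. It was lower in Restored cells of 4711-1 and higher in those of 4716-11 with every guide. The log2 fold change of Gadd45a was 0.15 ± 0.63 (limma adjusted p = 0.910), -0.75 ± 0.63 (adjusted p = 0.520) and -0.15 ± 0.63 (adjusted p = 0.924) with the 3 guides, and the 95% interval with sgBgal ran from -1.20 to 1.501.

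Gadd45b, the member best known from NF-κB and TGF-β signaling, was higher in Restored cells in 8 of 9 pairs. It read 60.5, 61.9 and 69.9 TPM in Control cells with sgBgal and 58.7, 86.8 and 99.7 TPM in Restored cells, and the ratio over all pairs ran from 0.970 to 2.26. Its log2 fold change was 0.31 ± 0.40 (limma adjusted p = 0.662), 0.57 ± 0.40 (adjusted p = 0.435) and 0.67 ± 0.40 (adjusted p = 0.342). Gadd45g was abundant before restoration and read 593, 306 and 697 TPM in Control cells with sgBgal against 577, 373 and 775 TPM in Restored cells. Its log2 fold change was 0.13 ± 0.74 with sgBgal (limma adjusted p = 0.936), 0.40 ± 0.74 for sgPpia#3.2 (adjusted p = 0.815) and 0.67 ± 0.74 for sgPpia#4.1 (adjusted p = 0.645).

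Plk3, the close relative of Plk2, did not pass with any guide, and the difference between them was not tested. Plk3 read 41.0, 15.3 and 21.0 TPM in Control cells with sgBgal and 34.0, 35.7 and 15.5 TPM in Restored cells, and Restored was higher in 4 of 9 pairs. The log2 fold change of Plk3 was 0.16 ± 0.41 with sgBgal, with a 95% interval from -0.72 to 1.05 (limma adjusted p = 0.844), and -0.27 and -0.06 with sgPpia#3.2 and sgPpia#4.1.

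The median of all genes tested was itself above 0, at 0.19, 0.17 and 0.15 with the 3 guides, and moved to -0.0025 with sgBgal when samples were rescaled by the median of ratios. Over all genes with sgBgal, 701 were called higher and 279 lower as deposited, and 480 and 391 after rescaling. After rescaling with sgBgal, Zmat3 stood at 2.78, Plk2 at 2.16 (limma adjusted p = 0.0722, or 0.03004 with the block), Btg2 at 1.24 and Btg1 at 1.03 (adjusted p = 0.0158), while Gadd45a, Gadd45g and Plk3 went to -0.07, -0.09 and -0.05.

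**Figure D2:**
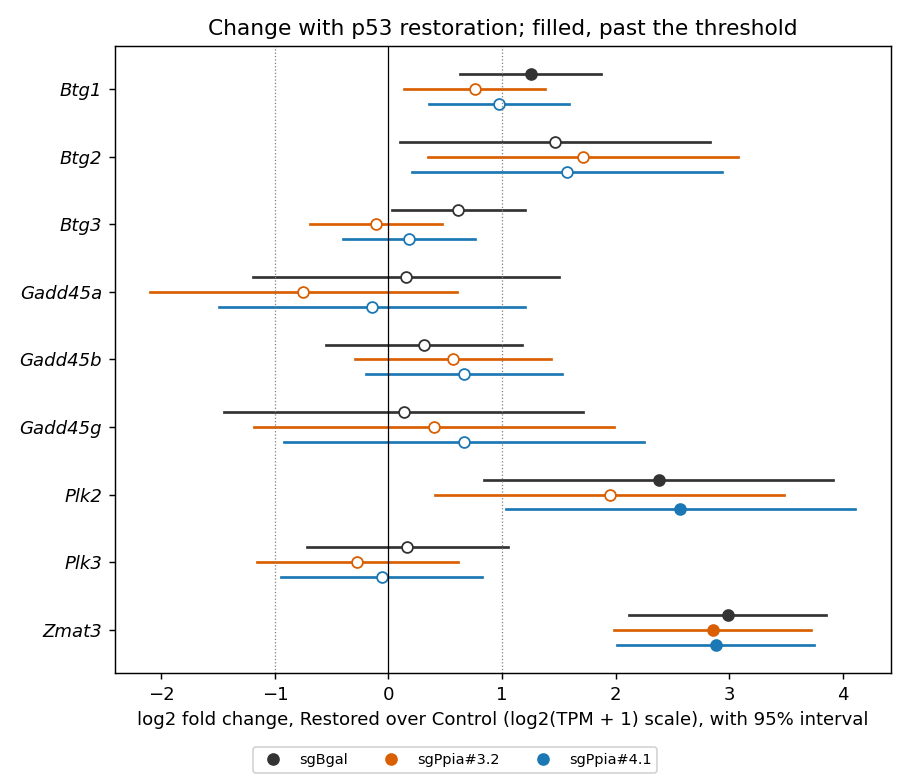
Log2 fold change of Restored over Control on the log2(TPM + 1) scale, with its 95% interval from limma, for the 9 genes and 3 guides (n = 3 samples per condition). Filled points passed the threshold, dotted lines mark a log2 fold change of 1 in either direction, and Zmat3 alone is filled for all 3 guides.

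The second question was whether the guides against Ppia changed these genes or their response. In limma, 0 of the 9 genes were called between either Ppia guide and sgBgal in Control or Restored cells. Among all genes, 0 were called in these 4 comparisons (percent called 0), with 311, 154, 27 and 68 genes (2.42%, 1.2%, 0.21% and 0.53%) at an unadjusted p under 0.05 for sgPpia#3.2 in Control and Restored cells and sgPpia#4.1 in Control and Restored cells. Blocking on line called 2, 1, 0 and 0 genes (0.0156% and 0.0078% for the first pair), none of them among the 9. They were Ppia in both states and Muc1, a mucin of epithelial surfaces, in Control cells. Without the block, Btg3 was the one member at an unadjusted p under 0.05, at 0.66 with sgPpia#3.2 in Control cells (limma unadjusted p = 0.0293). The difference was 1.08 in 4711-18, a culture that stood apart, and 0.55 and 0.35 in 4711-1 and 4716-11, and without the cultures that stood apart it was 0.40, or 0.57 with the block. With the block and all samples, its 95% interval was 0.34 to 0.98. In Restored cells the blocked intervals of Btg3 with sgPpia#4.1 (-0.66 to -0.03) and Zmat3 with sgPpia#3.2 (-0.52 to -0.08) also lay below 0. None of these was called. The response to restoration with a Ppia guide minus that with sgBgal was called for 0 of the 9 genes and 0 of all genes (percent called 0), with 31 and 18 genes (0.242% and 0.14%) at an unadjusted p under 0.05. For Zmat3 this difference was -0.13 with sgPpia#3.2, with a 95% interval from -1.36 to 1.09, and -0.11 with sgPpia#4.1, from -1.33 to 1.12. For Plk2 it was -0.43, from -2.61 to 1.74, and 0.19, from -1.98 to 2.37. For Btg1 it was -0.49, from -1.37 to 0.38, and -0.28, from -1.16 to 0.60. For Btg3 it was -0.73, from -1.55 to 0.098, and -0.43, from -1.26 to 0.39, below 0 in 3 of 3 lines with both guides but not called (limma adjusted p = 1.00 for both). With lines as blocks the intervals of Btg3 were -1.17 to -0.28 and -0.88 to 0.012, and it was still not called. In the same fit the intervals of Zmat3 narrowed to -0.45 to 0.18 with sgPpia#3.2 and -0.42 to 0.21 with sgPpia#4.1, and those of Btg1 to -1.13 to 0.14 and -0.92 to 0.36. For Plk2 the block left the intervals nearly as wide, at -2.61 to 1.74 and -1.98 to 2.37.

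Beneath these tests the large differences lay in single cultures. In 4711-1 with sgPpia#4.1, Plk2 was lower than with sgBgal by a log2 difference of -2.89 in Control and -2.32 in Restored cells, Btg2 by -2.07 and -1.97, and Gadd45g by -1.57 and -0.48. In 4711-18 with sgPpia#3.2, Plk2 differed by -0.88 and -2.17, Btg2 by -1.88 and -1.69, and Gadd45g by -1.75 and -0.59. Both cultures were thus low for these 3 genes in both states, and they are those that stood apart over all genes. In the 8 other differences between a Ppia guide and sgBgal, Plk2 lay between -0.30 and 0.23, Gadd45g between 0.04 and 0.50, and Btg2 between -0.82 and 0.89. Zmat3 did not share this pattern, at -0.35 to -0.07 in the cultures that stood apart and -0.33 to 0.15 in the others. It was below sgBgal in 4 of the 4 differences of those cultures and in 7 of the 8 others. Gadd45a moved in opposite directions in 4711-18 with sgPpia#3.2, by 1.71 in Control and -0.97 in Restored cells. Mki67, a proliferation marker, read 23.0 TPM in the Control sample of 4711-18 with sgPpia#3.2 against 92.5 TPM with sgBgal, and 70.6 TPM in that of 4711-1 with sgPpia#4.1 against 99.6 TPM. Cdkn1a, the p21 cell cycle inhibitor, read 369 against 154 TPM in the first pair and 129 against 122 TPM in the second, and Dusp1 126 against 291 TPM and 183 against 814 TPM. The part of these genes in the differences was not tested.

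**Figure D3:**
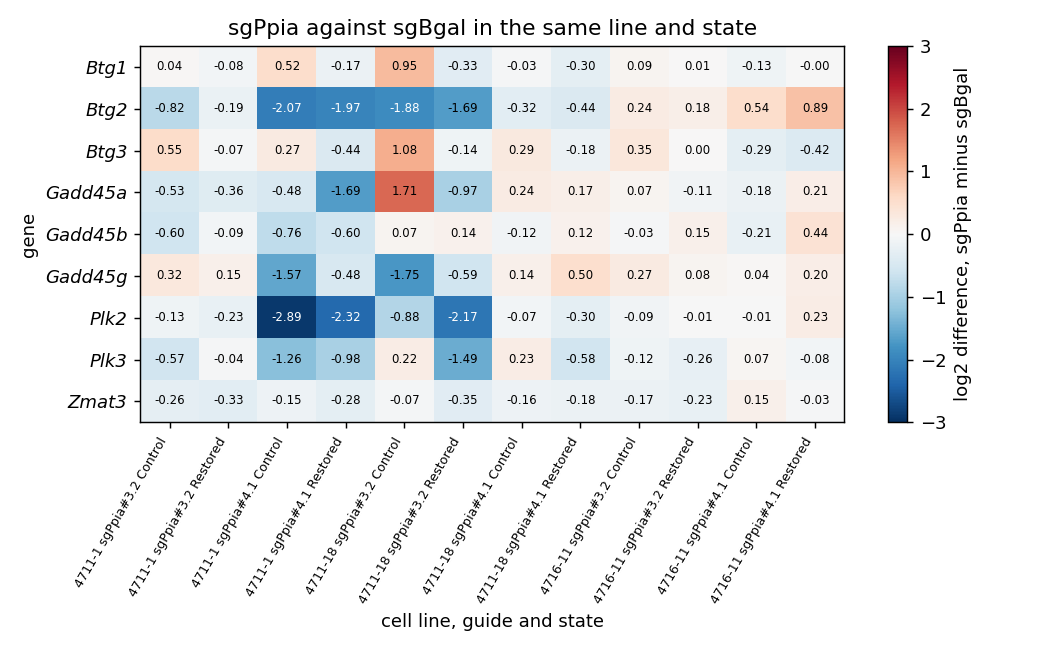
Log2 difference in log2(TPM + 1) between each Ppia guide and sgBgal in the same line and state, for the 9 genes, with the value in each cell and blue for lower with the Ppia guide. The lowest values lie in the columns of 4711-1 with sgPpia#4.1 and 4711-18 with sgPpia#3.2, down to -2.89 for Plk2, while the 4716-11 columns lie between -0.42 and 0.89.

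The lines themselves differed in the level of most of the genes. With the condition as a covariate, the moderated F test of limma over the 3 lines passed an adjusted p of 0.05 for 6 of the 9 genes, as it did for 72.7% of all genes, so the share among the 9 is no higher than the background. Each line gave 6 samples that are cultures of the same cells, so these p-values describe the 3 lines and not lines in general. Zmat3 was higher in 4711-18 than in 4711-1 by a log2 difference of 0.89 ± 0.07 (SE, limma adjusted p = 5.51e-07), and 4716-11 was close to 4711-1, at -0.03 ± 0.07. Its mean level over the 3 guides was 10.9 TPM in Control and 82.8 TPM in Restored cells of 4711-18, against 5.15 and 46.5 TPM in 4711-1 and 4.98 and 45.6 TPM in 4716-11. Btg3 was likewise highest in 4711-18, by 0.52 ± 0.10 over 4711-1 (limma adjusted p = 0.00102). Gadd45b was lowest in 4711-1, with 4716-11 higher by 0.88 ± 0.15 (limma adjusted p = 0.000364) and 4711-18 by 0.67 ± 0.15 (adjusted p = 0.00212). Gadd45g was higher in 4716-11 than in 4711-18 by 1.497 ± 0.36 (limma adjusted p = 0.00328), Gadd45a was higher in 4711-18 than in 4711-1 by 1.08 ± 0.34 (adjusted p = 0.0181), and Btg1 was lower in 4716-11 than in 4711-1, by a difference of -0.53 ± 0.15 (adjusted p = 0.00966). For Btg2, Plk2 and Plk3 the F test did not pass, with adjusted p-values of 0.695, 0.566 and 0.0958.

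The 3 guides stood as replicates within a line for the response to restoration, and the F test of limma for a difference in response between lines passed for 0 of the 9 genes, against 4.92% of all genes. Adjusted p-values ran from 0.335 for Gadd45b to 0.833 for Btg3. The guides are themselves treatments, each with 1 sample per line and state. These p-values therefore measure the spread between guide cultures and not between replicates of a line. Differences between guides, those of the cultures that stood apart included, enter the error of this test. These cultures were chosen for their distance from the other guides of their line, so leaving them out lowers that error by construction. A pass without them is no independent evidence that lines differ. Without them 4 of the 9 genes passed, against 23.2% of all genes, and these were Plk2 (limma adjusted p = 0.000429), Btg1 (adjusted p = 0.0105), Plk3 (adjusted p = 0.0116) and Gadd45a (adjusted p = 0.0182). On that fit the log2 response of Plk2 was 1.56 in 4711-1, 3.32 in 4711-18 and 2.204 in 4716-11, and that of Btg1 was 1.09, 1.59 and 0.91 in the same order. Plk3 stood at 0.0036, 0.76 and -0.51, and Gadd45a at -0.47, 0.68 and 0.36. Each of the 4 genes had its highest response in 4711-18, where 2 guides remained, as in 4711-1. Zmat3 stood at 2.98, 2.90 and 2.97 (limma adjusted p = 0.849).

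Across the 18 samples some of the genes varied together once the means of condition and line had been removed. Pearson's r was 0.93 for Btg2 and Plk2, 0.83 for Gadd45g and Plk2, 0.81 for Plk2 and Plk3, 0.80 for Gadd45a and Gadd45b and 0.78 for Btg2 and Gadd45g. Zmat3 and Plk2 had r = 0.13 on the same measure although both rose with restoration. Samples of a line share their origin and the cultures that stood apart weigh in all of these values, which are given as a description. Over all genes tested, the levels most like those of Plk2 were Dusp1 (r = 0.963), a phosphatase of the immediate early response, and Osgin1 (r = 0.955). After the condition means were removed, Csrnp1 was closest to Plk2 (r = 0.96) and Zfp36, which binds AU-rich messages, to Btg2 (r = 0.93). Zmat3 was most like 2310022A10Rik and Psrc1 (r = 0.99 for both) over 18 samples. Btg1 was most like Rnf11 and Cdk17 (r = 0.98 for both), Btg2 like Dhx38 (r = 0.935) and Mfsd2b (r = 0.92), and Gadd45g like Ccn1 (r = 0.88) and Tomt (r = 0.87). The closest genes to Gadd45b were Auh (r = 0.935) and Zswim7 (r = 0.93), to Plk3 Plaur (r = 0.90) and Snora28 (r = 0.86), to Btg3 Hscb (r = 0.89) and Lekr1 (r = 0.87), and to Gadd45a Slamf9 (r = 0.84) and Zyx (r = 0.83).

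The genes were set beside lists of their partners, relatives and pathways. For each list count, the share called over all genes was 7.64%, 5.75% and 6.09% with sgBgal, sgPpia#3.2 and sgPpia#4.1. Of 25 p53 targets 20 rose with each guide and 0 fell, with a median log2 fold change of 2.55, 2.44 and 2.51 against 0.19, 0.17 and 0.15 over all genes. Without 4716-11 the count with sgPpia#4.1 was 13, with a median of 2.35. Ddit4l at 4.44 and Cdkn1a at 4.35 were the highest with sgBgal, and Sesn1 at -0.10 and Tigar at 0.27 the lowest. Zmat3 thus lay within the span of these targets, whereas Gadd45a and Plk3 lay with the few that did not pass.

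The deadenylase partners and relatives of the BTG proteins did not pass in either direction, 0 of 17 tested with each guide. Tob1, a relative of Btg1, stood highest at 0.75 with sgBgal, followed by Pabpc1 at 0.72, and Prmt1 and Tob2 lowest at -0.47 and -0.38. Among 16 tested GADD45 partners 2 fell with each guide and 0 rose. Those that fell were Ccnb1, at -2.74 with sgBgal, and Cdk1, at -1.89, the kinase pair that GADD45 proteins bind, and both are also in the proliferation list. Without 4711-1 neither was called with any guide (limma adjusted p = 0.0649 and 0.109 with sgBgal), at folds close to those with all lines (-2.91 and -1.87 with sgBgal), and without 4716-11 neither was called with sgPpia#3.2 and only Ccnb1 with sgPpia#4.1. Map2k4 rose with sgPpia#4.1 without 4711-1 (1.04, limma adjusted p = 0.0493). Mapk9 and Map2k4 of the stress kinase branch stood at 0.97 and 0.94. Among 5 tested relatives of Plk2, Plk3 and Zmat3, the mitotic kinase Plk1 fell by 3.14 on the log2 scale with sgBgal and Plk4, which controls centriole duplication, fell by 1.76, and both fell with each guide, while Zmat1 rose by 1.13 with sgBgal and also with sgPpia#4.1 but not with sgPpia#3.2 (0.90, limma adjusted p = 0.0610). Plk4 was called with each guide whichever line was left out, whereas Plk1 was not called with any guide without 4711-1 (-3.33, limma adjusted p = 0.109 with sgBgal), nor with sgPpia#3.2 without 4716-11. Zmat1 lost its sgBgal call without 4711-1 or 4716-11 and its sgPpia#4.1 call without 4711-18 or 4716-11.

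Of 22 immediate early genes 0 were called with any guide, with Dusp1 at 1.90 and Fosb at 1.72 the highest with sgBgal and Nr4a1 at -1.24 and Egr3 at -1.13 the lowest. Without 4711-1, 1 of them was called with sgBgal, higher in Restored cells. Of 12 integrated stress genes 1 rose and 1 fell with each guide, and these were Sesn2, which the p53 target list also holds, at 3.25 with sgBgal, and Psat1, at -1.12. Ddit4 stood at 1.78 (limma adjusted p = 0.0816) and Asns at 0.06 with sgBgal, and without 4711-18 Ddit4 rose with sgPpia#3.2 (2.41, adjusted p = 0.0342). The sgBgal call of Psat1 was lost without any 1 of the 3 lines (limma adjusted p = 0.112 to 0.167), at -1.23 to -1.04, while Sesn2 kept its sgBgal call in each case. With sgPpia#3.2 Sesn2 was not called without 4711-1 or 4716-11, and with sgPpia#4.1 not without 4711-18 or 4716-11. Psat1 was not called without 4711-18 with sgPpia#3.2, nor without 4711-1 or 4716-11 with sgPpia#4.1. With the block 4 of these 12 genes rose with sgBgal. Of 25 proliferation genes 14, 13 and 14 fell with the 3 guides and 0 rose, with a median log2 fold change of -1.89, -1.70 and -1.76. Without 4711-1 these counts were 1, 0 and 2 at medians of -2.11, -1.71 and -1.91, and without 4716-11 they were 7, 3 and 6 at medians of -2.24, -1.80 and -2.10, so calls were lost while the fold changes were as large. Their extremes were Plk1 at -3.14 and Ccnb2 at -3.01, the lowest, and Ccne1 at 1.11 and Ccne2 at 0.81, the highest with sgBgal. Without 4711-18 Ccne2, a cyclin of S phase entry, rose with sgBgal (1.20, limma adjusted p = 0.0181) and sgPpia#3.2 (1.03, adjusted p = 0.02996).

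**Figure D4:**
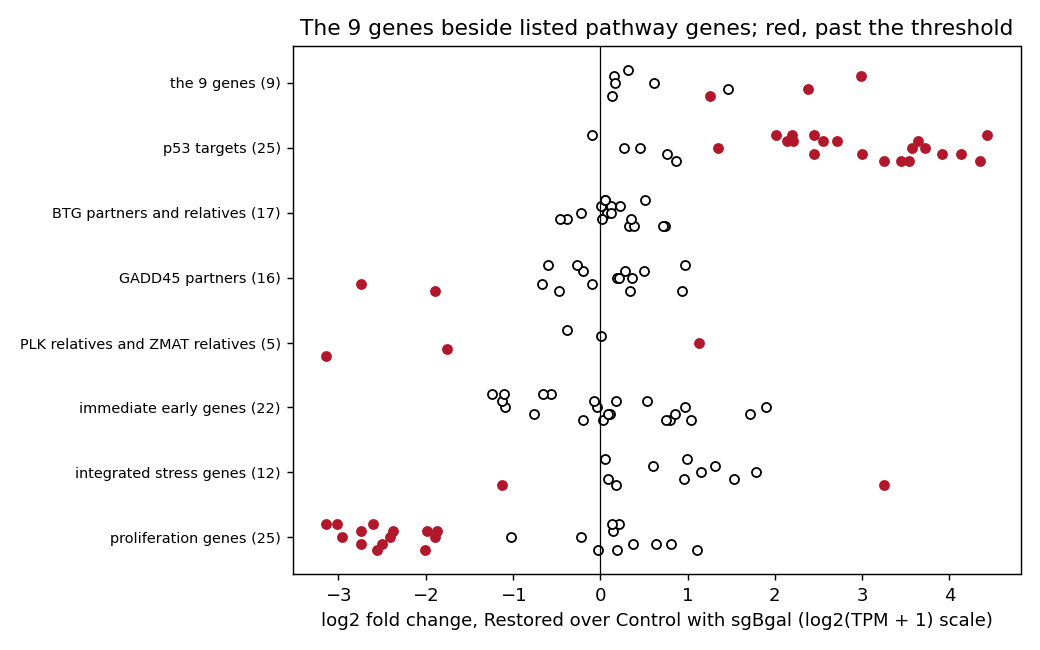
Log2 fold change of Restored over Control with sgBgal for the 9 genes and for the tested members of each list (number in parentheses), with genes past the threshold in red. The 3 red points of the 9 genes fall between 1.25 and 2.99, inside the span of the p53 targets, and the proliferation genes that passed lie below 0.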

How the data were processed

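RNA of 18 samples was analysed, 3 for each of 6 conditions, with groups taken from the sample labels. The authors deposited TPM (length- and library-scaled abundance) for 25239 genes in 1 column per sample, and 0 columns were left unused. The study names Kallisto or HISAT2 for alignment and mm10 as well as GRCm39 as the genome, without saying which served these samples. The submitters' processing notes name HISAT2 and bcl2fastq 2.17. TPM hold no total, so absolute depth is unknown and no counting interval was computed. Every column sums to the same total, so a gene's TPM also depends on what the other genes do.

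Genes that reached 1 TPM in 3 or more samples were tested with limma 3.58.1 (R 4.3.3) on log2(TPM + 1), with 1 mean per condition, all 18 samples sharing the spread. The call was a Benjamini-Hochberg adjusted p under 0.05 with a log2 fold change of 1 or more in either direction, and for differences in response and between lines the adjusted p alone. The cell lines named in the labels pair the samples. Deviations from the condition means correlated at 0.73 on average between samples of the same line (lowest 0.58, 45 pairs), against -0.36 on average between lines. Within a condition the deviations of the lines cancel out, which by itself makes the value between lines negative. The study states no block, so the fit without one comes first. Whether samples of a line came from separate cultures beyond guide and treatment is not stated, so p-values measure the spread between these samples.

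Tried beside this were median-of-ratios scaling, a pseudocount of 0.1, no filter or at least 5 TPM in 3 samples, eBayes with trend and robust estimates, no minimum fold, the replicate block, the compared samples alone, and leaving out each line or guide. 4 further ones, leaving out the cultures that stood apart, the same with the block, the block with scaling, and leaving out lines for the gene lists, were chosen after seeing the data. For each of the 9 genes an exact permutation test was run too (R 4.3.3). Levels, correlations and promoter matches were computed in Python 3.11.15. The scripts were tested on simulated data. The 9 genes, the gene lists and the tests were chosen with earlier results of these data known. Named were the 9 genes, Trp53 and Ppia, the 2 highest and 2 lowest genes of each list with sgBgal, and for each of the 9 the 2 genes most correlated over the 18 samples and the 1 most correlated after condition means were removed. Of the last, only those for Plk2 and Btg2 are printed. Mki67, Muc1 and the marker genes given beside the samples were named after their values were seen. 1 listed symbol was found under its current name. Promoter windows came from RefSeq (GRCm38.p6).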

Additional observations from a re-analysis of the deposited data

Results flagged for a closer look

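Highest and lowest samples were examined for each of the 9 genes among the 9 Control and the 9 Restored samples, which pool lines and guides. In 4 of these 18 sets a sample lay further from its nearest neighbour than Dixon's 95% limit allows, all 4 being the highest Control sample. The limit would flag about 1 set in 20 for independent, normally distributed values. These TPM were not log-transformed and come from samples that share lines and guides, so that rate does not apply here. Btg2 stood at 278 TPM and Plk3 at 41.0 TPM in 4711-1 with sgBgal. Btg3 stood at 8.38 TPM and Gadd45a at 206 TPM in 4711-18 with sgPpia#3.2, a culture that stood apart over all genes. Gadd45a was flagged because its responses in 4711-1 and 4716-11 had opposite signs with every guide. How many of all genes meet this rule was not counted. The log2 response to restoration was negative with every guide in 4711-1, from -1.77 to -0.39 with a mean of -0.90, and positive with every guide in 4716-11, from 0.11 to 0.69 with a mean of 0.36. The difference, 4716-11 minus 4711-1, was 1.27 and did not pass the limma test of that difference (adjusted p = 0.433, 95% interval -0.11 to 2.65). Guides are the replicates of that test, so the cultures that stood apart enter its error. Without them the response was -0.47 in 4711-1 and 0.36 in 4716-11, the difference had a limma adjusted p of 0.0647, and the F test over the 3 lines passed (adjusted p = 0.0182), as for 23.2% of all genes. Those cultures were chosen for their distance from the other guides, so leaving them out lowers this error by construction. The pass is no independent evidence of a difference between lines.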

How the results depend on the processing

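The number of the 9 genes called with sgBgal was 3 and ranged from 1 to 3 when a line was left out, because Btg1 and Plk2 lost their calls without 4711-18 (limma adjusted p = 0.147 and 0.221) and without 4716-11 (0.0653 and 0.205). It was 2 with median-of-ratios scaling and without a filter on low values, by loss of Plk2 (adjusted p = 0.0722 and 0.0789). With sgPpia#4.1 it was 2 and ranged from 1 to 3, and it was 1 with median-of-ratios scaling, without a filter on low values and on the 6 compared samples alone, each time by loss of Plk2. With sgPpia#3.2 it was 1, and 2 both with cell line as a replicate block and without the cultures that stood apart. With the block and without those cultures it was 4, 3 and 4 with sgBgal, sgPpia#3.2 and sgPpia#4.1, Zmat3, Btg2 and Plk2 being called with every guide and Btg1 with sgBgal and sgPpia#4.1. Those cultures were chosen for their spread, so calls gained without them are no independent evidence. With the block and median-of-ratios scaling it was 3, 1 and 2, without the call of Plk2 with sgPpia#3.2 that the block alone made (limma adjusted p = 0.0786). The replicate block changed no other call among the 9. Zmat3 was called with every guide under every alternative run. Over all genes the calls with sgPpia#4.1 rose from 781 to 1177 with the block, and without a minimum fold they were 1773, 1284 and 1322. On the compared samples alone they were 367 with sgPpia#3.2 and 416 with sgPpia#4.1. Without 4716-11 they fell from 980, 738 and 781 to 466, 229 and 280 with sgBgal, sgPpia#3.2 and sgPpia#4.1, without 4711-1 to 601 and 438 with the first pair, and without 4711-18 to 474 with sgPpia#4.1. The proliferation genes that fell with sgBgal numbered 1 without 4711-1 and 7 without 4716-11. With sgPpia#3.2 they numbered 2 on the compared samples alone and 7 without the cultures that stood apart. The p53 targets that rose with sgPpia#4.1 numbered 13 without 4716-11. Genes whose response differed between lines numbered 631, 358 with a pseudocount of 0.1, and 32 and 43 without sgBgal and sgPpia#4.1, and 2970 without the cultures that stood apart, when 4 of the 9 genes passed in place of 0. The error of that test is the spread between guides, for which those cultures were chosen. With the block, without those cultures, 1188 and 1591 of all genes were called with the Ppia guides. The cause was not tested.

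Values that changed sign were all uncalled. With median-of-ratios scaling, with or without the block, these were the restoration changes with sgBgal of Gadd45a (-0.066), Gadd45g (-0.088) and Plk3 (-0.050), and in Restored cells Btg3 with sgPpia#3.2 against sgBgal (0.025) and Gadd45b with sgPpia#4.1 (0.075).

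Without the cultures that stood apart they were, for restoration, Btg3 (0.0026) and Gadd45g (-0.12) with sgPpia#3.2 and Gadd45a (0.66) with sgPpia#4.1. For sgPpia#3.2 against sgBgal they were Gadd45a (-0.16), Gadd45g (0.65) and Plk2 (0.24) in Control and Gadd45b (-0.029) and Gadd45g (0.39) in Restored cells. For sgPpia#4.1 they were Btg1 (-0.23) and Zmat3 (0.11) in Control and Btg2 (0.14), Gadd45a (0.49), Gadd45b (0.50) and Zmat3 (0.0067) in Restored cells. In these guide comparisons 2 lines stand against 3, so line differences enter. With the block they were, for sgPpia#3.2, Gadd45a (-0.048), Gadd45g (0.36) and Plk2 (0.11) in Control and Gadd45b (-0.012) and Gadd45g (0.10) in Restored cells, and for sgPpia#4.1 Btg1 (-0.11), Btg3 (-0.027), Gadd45g (0.048) and Plk3 (0.031) in Control and Btg2 (0.37), Gadd45a (0.30), Gadd45b (0.32) and Plk2 (0.15) in Restored cells. Within the 2 lines left, Plk2 with sgPpia#3.2 in Control cells stayed below sgBgal, at -0.13 in 4711-1 and -0.095 in 4716-11. With and without the block the difference in response changed sign for Btg2 (-0.0086) and Gadd45g (-0.26) with sgPpia#3.2 and Gadd45a (0.51) with sgPpia#4.1.

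When a line was left out, the sign of these values depended on the line. For sgPpia#4.1 against sgBgal in Control cells the ranges were Btg1 from -0.081 to 0.24, Btg2 from -1.20 to 0.11, Btg3 from -0.0083 to 0.28, Gadd45a from -0.33 to 0.031, Gadd45g from -0.77 to 0.090 and Plk3 from -0.60 to 0.15. For the response with sgPpia#4.1 minus response with sgBgal the ranges were Btg2 from -0.0092 to 0.22, Gadd45a from -0.64 to 0.16 and Plk3 from -0.48 to 0.069. For sgPpia#4.1 against sgBgal in Restored cells the ranges were Btg2 from -1.21 to 0.22, Gadd45a from -0.76 to 0.19, Gadd45b from -0.24 to 0.28 and Gadd45g from -0.14 to 0.35. For restoration with sgPpia#3.2 the ranges were Btg3 from -0.22 to 0.0026 and Gadd45g from -0.12 to 0.70. For restoration with sgBgal the ranges were Gadd45a from -0.13 to 0.51 and Plk3 from -0.34 to 0.45. For restoration with sgPpia#4.1 the ranges were Gadd45a from -0.56 to 0.66 and Plk3 from -0.27 to 0.19. For sgPpia#3.2 against sgBgal in Control cells the ranges were Gadd45a from -0.23 to 0.89, Gadd45b from -0.32 to 0.022, Gadd45g from -0.74 to 0.29 and Plk3 from -0.34 to 0.047. For the response with sgPpia#3.2 minus response with sgBgal the ranges were Gadd45g from -0.18 to 0.49 and Plk3 from -0.92 to 0.20. For sgPpia#3.2 against sgBgal in Restored cells it was Gadd45g from -0.25 to 0.11.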
